A study of Drosophila melanogaster with 6 samples.

Results

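The Jonah proteases are serine endopeptidases of the chymotrypsin fold that *Drosophila* cells of the midgut secrete into the gut lumen, where they cut dietary protein into peptides. Of the 16 Jonah genes in the deposited table, those with the symbols *Jon65Aiv*, *Jon65Aiii*, *Jon65Aii*, *Jon65Ai*, *Jon66Ci* and *Jon66Cii* are described here. They were chosen by symbol, as the members of the clusters at cytological bands 65A and 66C, and make up 6 of the 13858 genes listed. The midgut of a feeding larva makes endopeptidases such as trypsins and Jonah proteases together with exopeptidases such as carboxypeptidases, which remove amino acids from the ends of the peptides. Tandem gene clusters of this kind arise by duplication, and neighbouring copies may differ in where and when they are used.

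RNA was taken from whole female L3b larvae, in the last larval instar, with 3 libraries of larvae in which *Act5C*-GAL4 activated the UAS-*Dctn1*-RNAi transgene in the whole body and 3 libraries of driver only control larvae. The study calls L3b the wandering stage, whereas the feeding larva described above is general background. All larvae carried the driver, and each library pools 12 to 15 larvae. The sample labels give grape agar with yeast as the larval diet, while the study's methods name only the sugar, corn meal and yeast food of the stocks. Their age is 96 h, counted from egg laying in the study's methods and from hatching in the series description. Knockdown relied on a single RNAi construct under a constitutive driver, so it was not restricted to the gut. The authors deposited FPKM values, fragment numbers scaled by transcript length and by the mapped reads of the library, which allow levels to be compared between genes per length. *Dctn1*, listed as DCTN1-p150, had 7.33, 7.96 and 6.85 FPKM in knockdown libraries 1, 2 and 3, against 15.3, 15.2 and 12.5 FPKM in control libraries 2, 3 and 4. Its knockdown mean was 51.5% of the control (log2 fold change -0.94, limma, Benjamini-Hochberg adjusted p = 0.00737). This falls short of the fold change threshold used for calls below. By qRT-PCR in L3b larvae of both sexes, the study reported a stronger reduction. The summed FPKM of a library lay between 94.2% and 98.02% of the mean over libraries in the knockdown and between 102% and 107% in the control.

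All 6 genes lie on chromosome arm 3L of the BDGP6.54 annotation, a build that the file itself does not name. *Jon65Aiv* (gene ID 38682, from 6039155 to 6040135, plus strand) is separated by 10621 bp from *Jon65Aiii* (38683, 6050757 to 6051690, plus strand). After 630 bp follows *Jon65Aii* (38684, 6052321 to 6053215, plus strand), and after a further 277 bp *Jon65Ai* (38685, 6053493 to 6054443, minus strand). *Jon65Aii* and *Jon65Ai* thus point towards each other. *Jon66Ci* (38952, 8391540 to 8392377, plus strand) and *Jon66Cii* (38953, 8392820 to 8393649, minus strand) also converge, with 442 bp between their 3′ ends. The first 3 genes have 2 exons each, whereas *Jon65Ai*, *Jon66Ci* and *Jon66Cii* are annotated with 1 exon in each transcript. For *Jon66Cii* the file lists 6 transcripts, and 5 of them carry names that mark them as additions to the annotation. It lists a single annotated transcript for *Jon65Aiv* and for *Jon65Aiii*. Whether the added transcripts run into the convergent neighbour, and whether reads were exchanged between these related genes, was not tested.

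**Figure D1:**
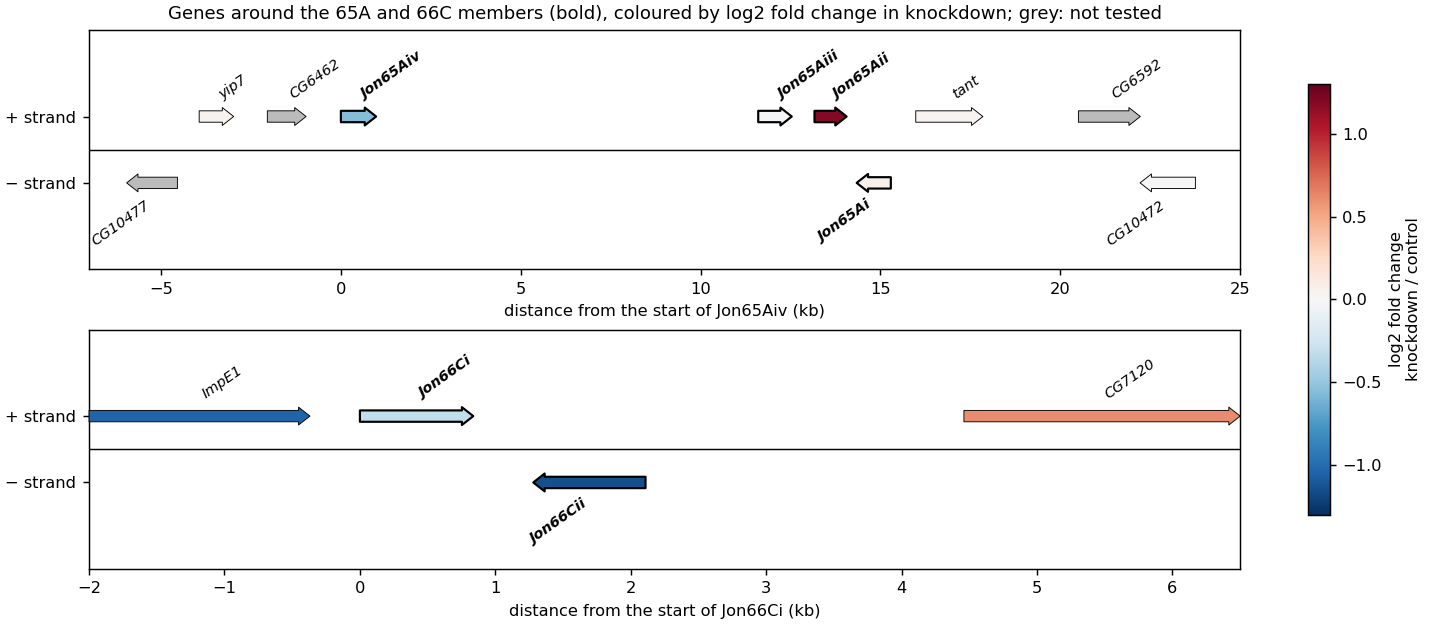
Positions of the Jonah genes of 65A (top) and 66C (bottom, bold names) and of neighbouring genes, as distance in kb from the start of the first Jonah gene shown, with the plus strand above the minus strand. Arrows give the direction of transcription and are coloured by log2 fold change, knockdown over control, whether or not the test was passed; *ImpE1* and *CG7120* run on beyond the plotted window, and of the coloured genes only *Jon65Aii* (1.19) and *Jon66Cii* (-1.14) had an adjusted p under 0.05.

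The members span a wide range of levels. *Jon65Aiv* ranked 5 among all genes by mean FPKM in knockdown larvae and 3 in control larvae. *Jon66Ci* ranked 10 in the knockdown and 9 in the control, and *Jon65Aiii* ranked 14 in the knockdown and 15 in the control. *Jon65Aii* ranked 131 in the knockdown and 260 in the control, *Jon65Ai* 176 in the knockdown and 186 in the control, and *Jon66Cii* 858 in the knockdown and 447 in the control. The order of the first 3 genes was the same in both groups by mean FPKM. Within libraries, *Jon66Ci* stood above *Jon65Aiii* in all 3 control libraries and in knockdown libraries 1 and 2, but below it in knockdown library 3. By contrast, *Jon65Aii* stood above *Jon65Ai* in all 3 knockdown libraries and below it in all 3 control libraries. The 6 genes together accounted for 3.04% ± 0.446 of all FPKM in knockdown larvae and 3.49% ± 0.823 in control larvae (SD, n = 3 each), with overlapping groups (two-sided exact permutation test, p = 0.6).

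The question of the comparison was how gene activity changes in larvae with reduced *Dctn1*. Of the 6 genes, 1 was higher and 1 was lower in knockdown larvae when both thresholds of the study's methods were applied, an adjusted p under 0.05 and a log2 fold change beyond 1 in either direction. The study used these thresholds with DESeq2, whereas here they were used with limma on FPKM values, so that calls can differ. *Jon65Aii* was 2.29-fold higher and *Jon66Cii* fell to 44.7% of the control. In whole larvae, fewer midgut cells and less RNA per cell cannot be told apart. Across the 9978 genes tested, 1.82% were called higher and 1.08% lower by the same rule, or 2.91% in either direction. By the adjusted p alone the members' counts were the same, while 5.06% of all genes were higher and 1.65% lower, 6.71% in either direction. With 6 genes, 1 call in each direction is a count too small to set against these shares. All 6 genes passed the filter on low values, a mean of at least 0.5 FPKM. Fold changes are on the log2(FPKM + 0.1) scale, and the median over all genes tested was 0.16.

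*Jon65Aii* had 988, 1213 and 1225 FPKM in knockdown libraries 1, 2 and 3, against 532, 449 and 516 FPKM in control libraries 2, 3 and 4. The lowest knockdown library was above the highest control library, a separation in this direction that 28.8% of all genes tested had. The log2 fold change was 1.19 (standard error 0.14, 95% interval 0.86 to 1.52, limma, Benjamini-Hochberg adjusted p = 0.00445). In the two-sided exact permutation test p was 0.1, the smallest possible with 3 libraries in each group. The log2 fold change lay between 1.12 and 1.29 with each library left out in turn, and the adjusted p did not exceed 0.0213 in these fits. It was 1.01 after median-of-ratios scaling (adjusted p = 0.0348, limma).

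*Jon66Cii*, the member with the lowest level, had 105, 90.8 and 94.2 FPKM in knockdown libraries 1, 2 and 3, against 229, 163 and 257 FPKM in control libraries 2, 3 and 4. The highest knockdown value was below the lowest control value, a separation in this direction that 4.66% of all genes tested had, and the 3 knockdown values were close together, with a coefficient of variation of 7.80% compared to 22.3% in the control. The log2 fold change was -1.14 (standard error 0.18, 95% interval -1.56 to -0.72, limma, Benjamini-Hochberg adjusted p = 0.0130; two-sided exact permutation test, p = 0.1). Without control library 2 the log2 fold change was -1.09 and the adjusted p was 0.0567, so that the call was lost. Without control library 3, which was the lowest of the controls, it was -1.33 (adjusted p = 0.00203, limma).

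The remaining 4 genes did not pass the test, and their groups overlapped. *Jon65Aiv*, the most abundant of all serine endopeptidases in the table, had 7094, 9216 and 10275 FPKM in the knockdown, against 12727, 9974 and 17136 FPKM in the control. Knockdown library 3 stood above control library 3, whereas the other knockdown libraries were below every control. The log2 fold change of *Jon65Aiv* was -0.57 (standard error 0.23, 95% interval -1.09 to -0.04, limma, Benjamini-Hochberg adjusted p = 0.174). *Jon66Ci* had 5753, 6890 and 5807 FPKM in the knockdown, against 7634, 6225 and 9496 FPKM in the control. Knockdown libraries 1 and 3 were below every control, and knockdown library 2 was above control library 3, and the log2 fold change was -0.32 (standard error 0.18, 95% interval -0.75 to 0.10, limma, Benjamini-Hochberg adjusted p = 0.307).

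*Jon65Aiii* had 4443, 6019 and 6085 FPKM in the knockdown, against 4982, 4752 and 7241 FPKM in the control. The groups interleave, and the log2 fold change was -0.03 (standard error 0.21, 95% interval -0.51 to 0.46, limma, Benjamini-Hochberg adjusted p = 0.953). *Jon65Ai* had 820.1, 874 and 723 FPKM in the knockdown, against 743, 720.3 and 852 FPKM in the control. All 6 libraries lay close together, and the log2 fold change was 0.06 (standard error 0.14, 95% interval -0.25 to 0.38, limma, Benjamini-Hochberg adjusted p = 0.809). A change as large as that of *Jon65Aii* or *Jon66Cii* lies outside the intervals of *Jon65Aiii* and *Jon65Ai*. Changes from -0.51 to 0.46 for *Jon65Aiii* and from -0.25 to 0.38 for *Jon65Ai* lie inside them. The sign of both depended on the scaling. *Jon65Aiii* stood at 0.13 after quantile normalization, where the median of all genes was 0.02. *Jon65Ai* stood at -0.12 after median-of-ratios scaling, which moved the median of all genes to -0.01 and thus lowered all genes by a like amount.

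**Figure D2:**
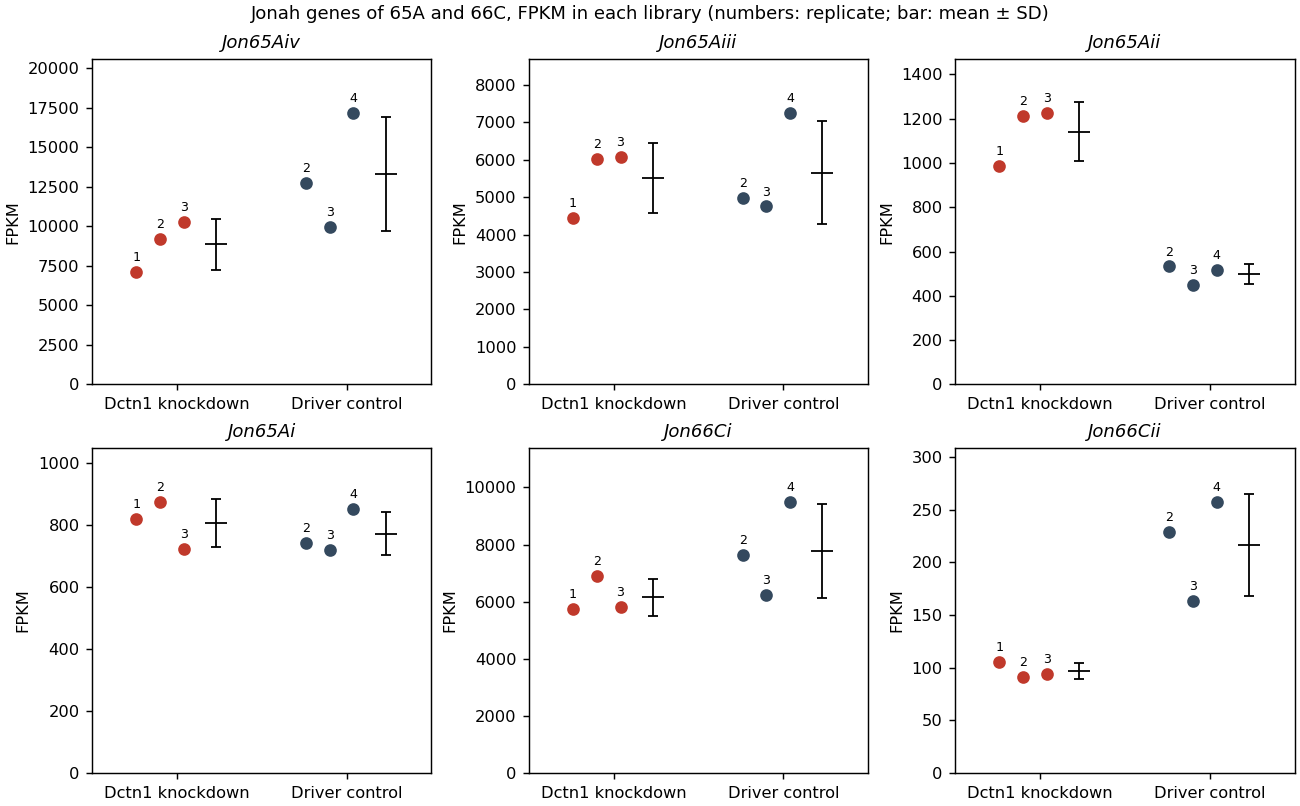
FPKM of the 6 Jonah genes in each library, with a linear axis from 0 for each gene. Points are libraries with their replicate number, knockdown on the left and control on the right, and bars give the mean and SD of 3 libraries; the groups are apart for *Jon65Aii* (988 to 1225 FPKM in the knockdown against 449 to 532 FPKM in the control) and for *Jon66Cii* (90.8 to 105 FPKM against 163 to 257 FPKM), and overlap for the other 4 genes.

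Since members of a cluster were measured in the same libraries, their ratio within a library does not depend on a single scaling factor per library. There are 7 such pairs, 6 in 65A and 1 in 66C, and in 5 of them the groups did not overlap. The pairs share genes, and 4 of these 5 contain *Jon65Aii* or *Jon66Cii*, whose own groups were already apart, so that the count is not independent of the 2 calls. Of single genes tested, 33.5% did not overlap in either direction, a share that is not directly comparable to a count of dependent ratios. The ratio of *Jon65Aii* to its convergent neighbour *Jon65Ai* was 1.21, 1.39 and 1.69 in knockdown libraries 1, 2 and 3, against 0.717, 0.623 and 0.606 in control libraries 2, 3 and 4. This corresponds to a log2 ratio that was 1.13 higher in the knockdown. The ratio of *Jon65Aii* to *Jon65Aiii*, which precedes it by 630 bp on the same strand, was 0.222, 0.202 and 0.201 in the knockdown, against 0.107, 0.0944 and 0.0712 in the control. Transcripts of adjacent genes thus differed in their balance between the groups, by a log2 difference of 1.22 for this pair.

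The ratio of *Jon65Aiv* to *Jon65Aiii* was 1.597, 1.53 and 1.69 in the knockdown, against 2.55, 2.10 and 2.37 in the control, although neither gene passed the test by itself. The log2 ratio was 0.54 lower in the knockdown. Quantile normalization does not use a single factor per library, and the ratios were not recomputed after it. It moved the log2 fold change of *Jon65Aiv* from -0.57 to -0.10 and that of *Jon65Aiii* from -0.03 to 0.13. In the 66C cluster, the ratio of *Jon66Cii* to *Jon66Ci* was 0.0183, 0.0132 and 0.0162 in the knockdown, against 0.0300, 0.0262 and 0.0271 in the control, a log2 ratio that was 0.81 lower in the knockdown. Each of the 5 ratios without overlap, which include that of *Jon65Aii* to *Jon65Aiv*, had p = 0.1 in the two-sided exact permutation test, the smallest possible, and 0.14 after Benjamini-Hochberg adjustment over the 7 ratios. A design of this size cannot reach a p under 0.05 in this test. The ratios of *Jon65Aiv* and of *Jon65Aiii* to *Jon65Ai* overlapped between the groups.

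**Figure D3:**
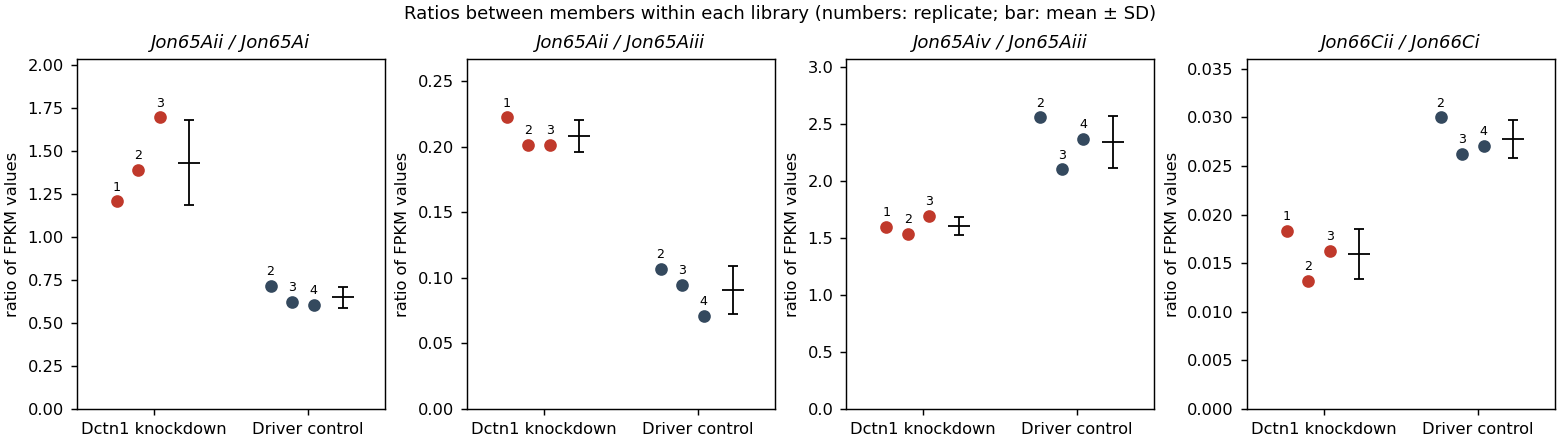
Ratio of FPKM values between 4 pairs of Jonah genes within each library, on linear axes from 0. Points are libraries with their replicate number, knockdown on the left and control on the right, and bars give the mean and SD of 3 libraries; the groups do not overlap in any of these pairs, and *Jon65Aii* exceeds *Jon65Ai* (ratio above 1) in the knockdown libraries alone.

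As shares of the FPKM summed over the 6 genes, *Jon65Aii* took 5.07% ± 0.0775 in knockdown and 1.82% ± 0.315 in control larvae (SD, n = 3 each). *Jon65Aiv* took 39.1% ± 2.93 in knockdown and 46.8% ± 1.83 in control larvae, and *Jon65Aiii* took 24.3% ± 1.06 in knockdown and 20.1% ± 1.41 in control larvae. The share of *Jon66Cii* was 0.437% ± 0.0965 in knockdown and 0.770% ± 0.0718 in control larvae. The groups did not overlap for these 4 shares (two-sided exact permutation test, p = 0.1 for each), while they did for *Jon66Ci*, at 27.4% ± 3.09 in the knockdown and 27.7% ± 0.865 in the control, and for *Jon65Ai*. Shares sum to 100%, so that they are not independent of each other. The summed FPKM of the 6 genes was 19204, 24304 and 24209 in knockdown libraries 1, 2 and 3, against 26847, 22283 and 35498 in control libraries 2, 3 and 4, with overlap (two-sided exact permutation test, p = 0.3).

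The members tended to be high or low in the same control libraries, and less so in the same knockdown libraries. Control library 3 had the lowest FPKM of the 3 controls for all 6 members and for 15 of the 16 Jonah genes. Control library 4 was the highest for 5 members and for 13 Jonah genes. Among the knockdown libraries, library 1 was the lowest for 4 members. The highest was library 1 for 1 member, library 2 for 2 and library 3 for 3. After the group means were subtracted, the log2 values of *Jon65Aiv* and *Jon65Aiii* had a Pearson r of 0.94 over the 6 libraries, and those of *Jon66Ci* and *Jon66Cii* an r of 0.72. *Jon65Aii* and *Jon65Ai* had an r of 0.07, the lowest of all 15 pairs of members. These values are descriptions over few libraries that share RNA, depth and larvae. The 5 genes outside the family of 6 whose log2 values were most like the mean standardized profile of the members were *Dbi*, *ND-B17.2*, *nrm*, *kappaTry* and *CG43386*, with r between 0.976 and 0.996 over 6 libraries. The groups overlapped in these 5 genes, which follows from their choice, since the mean profile itself overlapped between the groups. That mean includes *Jon65Aii* and *Jon66Cii*, which changed in opposite directions. The mean profile was highest in control library 4 and lowest in control library 3 and knockdown library 1.

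All of the 10 other Jonah genes were tested. Of these, 9 had a log2 fold change below 0, compared to 4 of the 6 members and 2574 of all 9978 genes tested. In the other Jonah genes 2 were called lower and 0 higher, and by adjusted p alone 4 were lower and 0 higher. Among all genes tested, 1.08% were called lower and 1.65% were lower by adjusted p alone. The median log2 fold change of the other Jonah genes was -0.61, against -0.17 for the 6 members and 0.16 for all genes. *Jon44E* had 94.6, 87.2 and 108 FPKM in the knockdown, against 389.5, 281 and 501.5 FPKM in the control (log2 fold change -1.98, limma, Benjamini-Hochberg adjusted p = 0.00337), and *Jon25Biii* had a log2 fold change of -1.06 (adjusted p = 0.0192, limma). The highest was *Jon99Fii*, with 0.43 (adjusted p = 0.706, limma). The count of other Jonah genes called lower was 3 without control library 3 and 1 without any one of the other libraries. The members' part of all Jonah FPKM was 51.5%, 56.5% and 55.0% in knockdown libraries 1, 2 and 3, against 44.0%, 47.9% and 48.5% in control libraries 2, 3 and 4. This share was 7.53 percentage points higher in the knockdown with no overlap between the groups (two-sided exact permutation test, p = 0.1). The members' own sum was not higher in the knockdown, as given above, while the summed FPKM of the other 10 was 18071 to 19834 in knockdown and 24237 to 37715 in control libraries, also without overlap (two-sided exact permutation test, p = 0.1). *Jon65Aii* was the only gene among the 16 Jonah genes called higher.

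The serine endopeptidase genes that start within 20 kb of a member are *yip7*, *CG10472*, *CG6462*, *CG10477* and *CG6592*, all around the 65A cluster. Only *yip7* and *CG10472* passed the filter on low values. *yip7* had 2287, 3224 and 3233 FPKM in the knockdown, against 2818, 2358 and 3265 FPKM in the control, which gave a log2 fold change of 0.05 ± 0.19 (SE; limma, Benjamini-Hochberg adjusted p = 0.905). For *CG10472* the log2 fold change was 0.00246 ± 0.21 (SE; limma, adjusted p = 0.996). *Jon65Aii* was therefore the only serine endopeptidase of this stretch that changed at these thresholds. Among the 12 tested genes of any kind within 20 kb of a member, 0 had an adjusted p under 0.05 in limma, and 1 had an unadjusted p under 0.05.

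The 11 midgut trypsins, endopeptidases that cut after basic residues, showed 1 gene called lower and none higher, with a median of -0.14. By adjusted p alone, 3 trypsins were lower and 0 higher. Among all genes tested, 1.08% were called lower and 1.65% were lower by adjusted p alone. *betaTry* had 69.3, 72.9 and 69.6 FPKM in the knockdown, against 399.7, 258 and 331 FPKM in the control (log2 fold change -2.20, limma, Benjamini-Hochberg adjusted p = 0.00147). Without control library 3, 2 trypsins were called lower. At the upper end, *lambdaTry* had a log2 fold change of 0.51 (adjusted p = 0.173, limma). Of the 266 genes that the file annotates with serine-type endopeptidase activity, 182 were tested, with 7 called lower and 6 called higher and a median of 0.03. *Jon66Cii* and *Jon65Aii* are among these 13 genes. Of the 20 serine endopeptidases with the highest mean FPKM, among which are all members except *Jon66Cii*, 15 had a log2 fold change below 0 and 5 above 0. Over all 9978 genes tested, 2574 were below 0 and 7404 above 0. *Jon65Aii* was the only 1 of the 20 serine endopeptidases that was called higher.

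**Figure D4:**
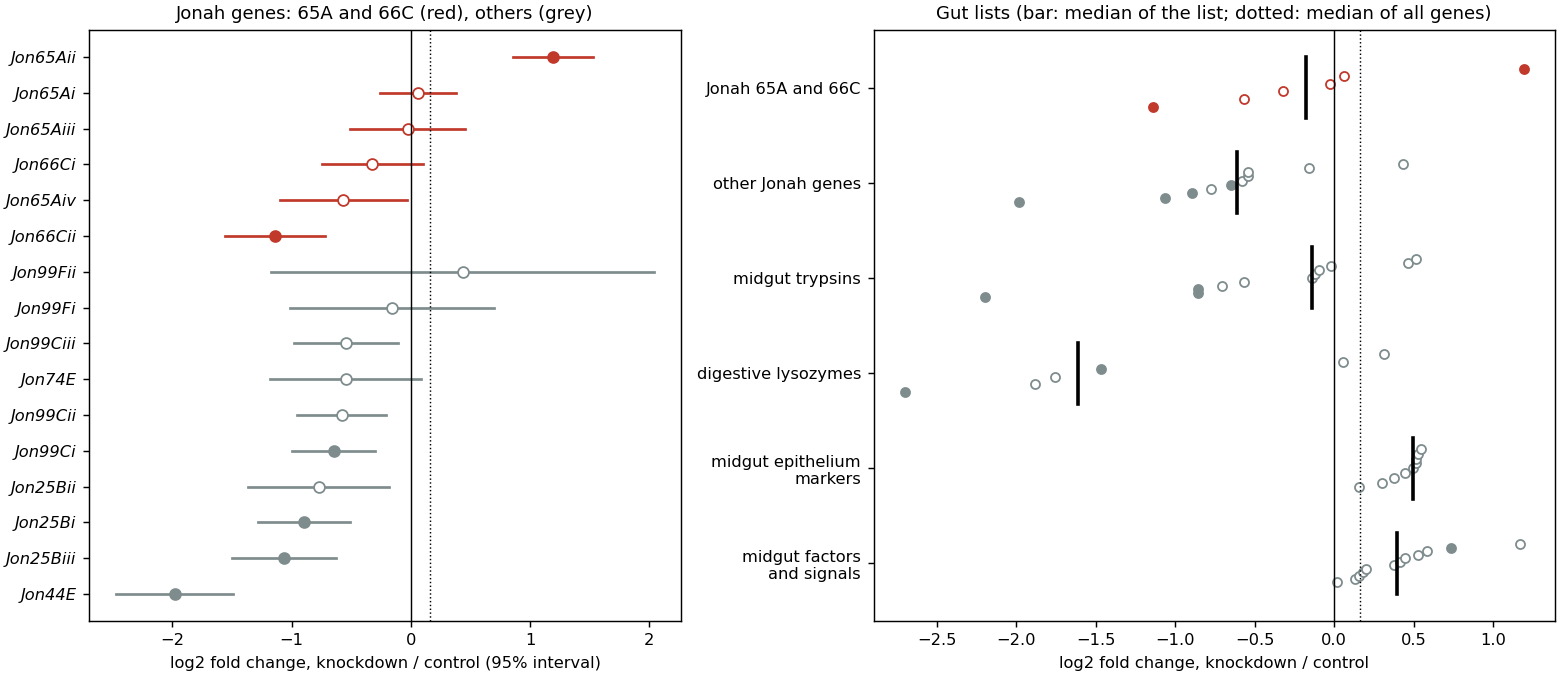
Left, log2 fold change, knockdown over control, with its 95% interval from limma for the Jonah genes of 65A and 66C (red) above the other Jonah genes (grey). Right, log2 fold changes of the genes of each gut list, with a bar at the median of the list; filled points have an adjusted p under 0.05 and the dotted line is the median of all genes, 0.16. The medians are -0.17 for the Jonah genes of 65A and 66C, -0.61 for the other Jonah genes and 0.50 for the midgut epithelium markers.

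Midgut epithelium markers without digestive enzymes were set beside the members, namely *mex1*, *Myo31DF*, *GATAe*, *nub*, *Ssk*, *mesh*, *Tsp2A*, *hoka* (listed as CG13704) and *lab*. All 9 were detected in every library. As the larvae were whole, their values need not be midgut levels. Their summed level was 1026 to 1267 FPKM in knockdown and 694 to 930 FPKM in control libraries (p = 0.1 in a two-sided exact permutation test). All 9 had a log2 fold change above 0, from 0.16 for *nub* to 0.55 for *Tsp2A* with a median of 0.50, and 0 of 9 had an adjusted p under 0.05 in limma (lowest 0.0734, for *Myo31DF*), while 6 had an unadjusted p under 0.05. Of all genes tested, 74.2% had a log2 fold change above 0 and 20.9% were higher at an unadjusted p under 0.05. The median of the 9 markers was 0.32 after median-of-ratios scaling and 0.40 after quantile normalization. The median of all genes was then -0.01 and 0.02. The groups did not overlap for 7 of the markers, all higher in the knockdown, where 28.8% of all genes tested were separated in this direction.

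With the log2 values taken relative to the mean of these 9 markers in each library, an alternative chosen after the data had been seen, *Jon65Aii* had a log2 fold change of 0.76 (adjusted p = 0.0190, limma) and no longer passed the fold change threshold. This scaling moved the median of all genes to -0.27. On that scale *Jon66Cii* stood at -1.57 (adjusted p = 7.69e-04), *Jon65Aiv* at -0.995 (adjusted p = 0.0131) and *Jon66Ci* at -0.75 (adjusted p = 0.0185, limma). *Jon65Aiii* had -0.46 and *Jon65Ai* -0.37, neither with an adjusted p under 0.05 (0.225 and 0.255, limma). *Jon65Aii* was the only member above 0 on that scale. The scaling lowered all members by a like amount, so that their order followed from the main fit. The part of midgut content in these values was not tested.

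Markers of other tissues differed between groups or libraries. The summed FPKM of 5 fat body markers was 18023 to 21764 in knockdown and 15608 to 18010 in control libraries, without overlap (two-sided exact permutation test, p = 0.1), although *Lsp2* and *Fbp1* of this list had log2 fold changes of -0.12 and -2.67, and neither passed the test. The sum of 3 nervous system markers was 26.2 to 33.3 FPKM in knockdown and 23.8 to 25.2 FPKM in control libraries, also without overlap (two-sided exact permutation test, p = 0.1). The sums overlapped for 5 salivary glue genes, at 2767 to 9196 FPKM in knockdown and 8366 to 25261 FPKM in control libraries, for 4 muscle markers, at 9146 to 13308 FPKM in knockdown and 7012 to 11880.1 FPKM in control libraries, and for 3 Malpighian tubule markers, at 18.1 to 63.3 FPKM in knockdown and 16.8 to 38.2 FPKM in control libraries. *Fbp1*, a fat body gene switched on late in larval life, had 1415, 47.3 and 639 FPKM in knockdown libraries 1, 2 and 3, against 2233, 4094 and 1199 FPKM in control libraries 2, 3 and 4. The part of these tissues and of larval stage in the members' values was not tested.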

How the data were processed

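RNA of whole larvae was measured in 3 *Dctn1* knockdown and 3 driver control libraries, and every value column was assigned by its name. After filtering with SOAPnuke and mapping with HISAT2, transcripts were quantified with RSEM, and the authors deposited FPKM values per gene without read counts. The submitters' processing notes also list StringTie, Cufflinks, GATK and DESeq2, with no role. The genome build, tool versions and strandedness of counting are not given in the sources used here. The absolute depth is unknown. In a search for a common step between libraries in nearly silent genes, only 2 to 11 genes of a pair shared a ratio within 5%, so that no relative depth was taken.

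A linear model with condition as its sole term was fitted in limma (version 3.58.1, R version 4.3.3) to log2(FPKM + 0.1), with a trended, robust variance. It covered the 9978 genes whose mean FPKM reached 0.5, and Benjamini-Hochberg adjustment was made over all of them. The code was tested on simulated data, where 200 of 200 changed genes and 0 others were called among 9978. The planted changes were larger than that of any member, and the noise was equal in all genes. This checks the code, and not how well changes of the members' size are found in these data. Exact permutation tests were run in SciPy version 1.17.1. Positions come from BDGP6.54 through the gene IDs.

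The labels call each pool of larvae a biological replicate but do not name separate crosses, so p-values measure only the spread between these pools. Members and lists were chosen with earlier results of these data known. Named are the members, *Dctn1*, the 5 genes most like the members' mean profile, serine endopeptidases within 20 kb, and the extremes and called genes of each list. Each fit was repeated with pseudocounts of 1 or 0.01, without the filter, with a minimum mean FPKM of 5, after median-of-ratios scaling or quantile normalization, without trend and robustness, with sample weights, with a block for the replicate number, without single libraries, and with calls by adjusted p only. Scaling to the midgut markers was added after the data had been seen. Promoters and protein sequences were not analysed here.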

Additional observations from a re-analysis of the deposited data

How the results depend on the processing

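The call of *Jon65Aii* was kept in 15 of 16 alternative fits and that of *Jon66Cii* in 15 of 16. Relative to the midgut markers, *Jon65Aii* had a log2 fold change of 0.76 and 0 members were called higher. With single libraries left out, the log2 fold change ranged from 1.12 to 1.29 for *Jon65Aii*, from -1.33 to -1.001 for *Jon66Cii*, from -0.75 to -0.36 for *Jon65Aiv*, from -0.47 to -0.17 for *Jon66Ci*, from -0.14 to 0.17 for *Jon65Aiii* and from 0.00129 to 0.14 for *Jon65Ai*; 0 to 1 members were called lower, since *Jon66Cii* was lost without control library 2 (adjusted p = 0.0567, limma). The sign changed for *Jon65Aiii* with quantile normalization (0.13), sample weights (0.10) and the replicate block (0.31), and for *Jon65Ai* with median-of-ratios scaling (-0.12) and relative to the midgut markers (-0.37). The cause was not tested.

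The study, with DESeq2, reported more genes lower than higher. Over all genes, 108 were called lower and 182 higher in the main limma fit here, the reverse balance. The lower count was 69 with no filter, 179 with sample weights, 251 relative to the midgut markers, 165 by adjusted p alone and 69 to 109 with single libraries left out. The higher count was 114 with median-of-ratios scaling (beside 120 lower), 117 with quantile normalization, 85 relative to the midgut markers, 505 by adjusted p alone and 140 to 183 with single libraries left out. Of the 7 lower and 6 higher serine endopeptidases, the lower count was 14 with sample weights, 19 relative to the midgut markers, 13 by adjusted p alone and 5 to 11 with single libraries left out. Their higher count was 2 relative to the midgut markers and 13 by adjusted p alone. The median over all genes was -0.01 after median-of-ratios scaling.

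The libraries of both groups share only the numbers 2 and 3. Deviations from the group means correlated at 0.40 and 0.14 for these, but at 0.63 for knockdown library 1 and control library 3, so that the numbers were not taken as pairs. With the replicate block, 200 genes and 16 serine endopeptidases were called lower, *Jon65Aii* had 1.32 (adjusted p = 0.0260) and *Jon66Cii* -1.06 (adjusted p = 0.0476, limma). FPKM without totals sets no counting error, and the exact tests could not go below 0.1.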

Other observations

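Of 6 tested digestive lysozyme genes, whose products break bacterial cell walls in the gut, 2 were called lower and 0 higher, with a median log2 fold change of -1.61 beside 0.16 for all genes. *LysB* had 7.75, 27.1 and 12.5 FPKM in the knockdown, against 97.2, 63.6 and 119 FPKM in the control (log2 fold change -2.70, limma, Benjamini-Hochberg adjusted p = 0.0423), and *LysP* had -1.47 (adjusted p = 0.0220, limma). By contrast, *LysS*, the most abundant of them, had 4042, 5363 and 5551 FPKM in the knockdown, against 4805, 3638 and 6171 FPKM in the control, and the list's highest value was that of *LysX*, with 0.31 (adjusted p = 0.799, limma). *LysB*, *LysD* and *LysE* are closely related copies between which reads may have been exchanged. *LysS* was named after its values had been seen.

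Of 25 genes annotated with metallocarboxypeptidase activity, 19 were tested and 0 passed both thresholds in limma, with a median of -0.26. The list was taken by this annotation alone and was not restricted to digestive enzymes of the gut. At an unadjusted p under 0.05 in limma, 5 were lower and 3 higher. By adjusted p alone, 2 were lower and 1 was higher. Values ranged from *Nna1*, with -1.62 (adjusted p = 0.493, limma), to *CG8539*, with 2.67, 2.40 and 2.71 FPKM in the knockdown, against 1.4, 1.31 and 1.6 FPKM in the control (log2 fold change 0.81, limma, Benjamini-Hochberg adjusted p = 0.0244).

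The 12 midgut transcription factors and signals all had a log2 fold change above 0, with a median of 0.39, and 0 passed both thresholds in limma (6 had an unadjusted p under 0.05). *GATAe*, *nub* and *lab* are also among the midgut epithelium markers, so that the lists are not independent. The values are of whole larvae and need not be midgut levels. Of all genes tested, 74.2% were above 0 and 20.9% were higher at an unadjusted p under 0.05. *sug*, a transcription factor of the response to sugar, had 61.0, 38.9 and 46.5 FPKM in the knockdown, against 31.6, 18.1 and 16.8 FPKM in the control (log2 fold change 1.17, limma, Benjamini-Hochberg adjusted p = 0.0510). The lowest was *srp*, with 0.02 (adjusted p = 0.958, limma). *Hr96*, a nuclear receptor of lipid metabolism, had a log2 fold change of 0.73 (adjusted p = 0.0177, limma).

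Beside *Jon66Cii*, *Jon44E*, *Jon25Biii* and *betaTry*, the serine endopeptidase genes called lower were *CG12951*, *CG11912* and *CG9672*. *CG12951* had 11.5, 4.35 and 8.46 FPKM in the knockdown, against 149, 135 and 92.9 FPKM in the control (log2 fold change -4.02, limma, Benjamini-Hochberg adjusted p = 0.00445). Beside *Jon65Aii*, those called higher were *Phae2*, *CG11313*, *CG34043*, *CG30082* and *CG11192*, with log2 fold changes from 1.25 to 1.92. Among these, *Phae2* had the highest level, with 71.1, 118 and 84.9 FPKM in the knockdown, against 39.9, 20.5 and 29.7 FPKM in the control.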
